A study of Rattus norvegicus with 2 samples.

Results

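The genes described here encode the classical axon guidance receptors and ligands, and they were chosen by gene name in a table of m6A peaks: Eph receptors and ephrins, plexins, neuropilins and semaphorins, Robo receptors and Slits, and Dcc, Unc5 receptors and netrins. The names took in 34 of 8512 peaks, which lay in 18 of 4209 genes with a peak. Hippocampal neurons of newborn Sprague-Dawley rats had been cultured with AraC from day 7 in vitro, and lead acetate (PbAc) was added at day 12 and left on for 48 h before N6-methyladenosine (m6A) was profiled. The series labels gave the dose as 5 mM in the sample records and 5 µM in the study design. The 2 libraries were 1 immunoprecipitate (IP), the RNA fragments that an m6A antibody recovered, and 1 input, the RNA before the pull-down, and both came from exposed neurons. Since neurons without lead are not analysed here, none of the values speaks of what lead did. With 1 library per group no value has a replicate check and no test between groups was made. Read counts were not part of the table, which leaves the depth of sequencing unknown, and whether a gene without a peak was expressed cannot be read from it.

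Guidance molecules steer growing axons at a distance or by contact, and many go on to shape dendrites and synapses after axons have arrived. Ligands are either secreted (Slits, netrins, class 3 semaphorins) or held on the membrane (ephrins and most other semaphorins), and receptors on the growth cone turn the signal into local changes of actin and microtubules. Ephrins and membrane semaphorins can also signal backwards into the cell that carries them, so the division into receptors and ligands used here follows their usual name and not every role they have. m6A is the most common internal modification of messenger RNA and bears on its decay, translation and transport.

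A peak is a region where IP fragments exceeded the local background. Its fold enrichment is the linear ratio of IP over that background, and its score is 10 times the −log10 of p, both as the authors' peak caller gave them. Peaks with a score of 100 or more, that is with p no larger than 1e-10, are called stringent below. The list was permissive and reached down to a score of 3.02. Coordinates are those of the table, 1-based, on a build that the sources used here do not name, and where in its transcript a peak lay was not analysed.

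Receptors had peaks more often than ligands did, and every stringent peak of the group lay in a receptor gene. Of 34 receptor genes in the current gene table, 13 had a peak (38.2%, exact 95% interval 22.2 to 56.4%), against 5 of 37 ligand genes (13.5%, interval 4.54 to 28.8%). Of all 23154 protein-coding genes, 17.3% had a peak, so the share of ligands was near that of any gene and the share of receptors stood above it. The 2 intervals overlapped, they cover counting error only, and the genes of a family are related and are not replicates. Receptors held 28 of the 34 peaks and ligands held 6.

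Stringent peaks were found in receptor genes and in no ligand gene. They lay in 6 receptor genes (17.6%, interval 6.76 to 34.5%) and in 0 ligand genes (0%, interval 0 to 9.49%), while 7.01% of protein-coding genes had one. Both intervals held that 7.01%. The receptors were Robo2, Epha7, Ephb1, Plxnb2, Plxna2 and Robo1. With the limit set at 1e-5 there were 7 receptors and 0 ligands, the added receptor being Ephb6, and 9.08% of protein-coding genes. With the limit set at 0.05 there were 9 receptors and 1 ligand, Sema3e, and 13.4% of protein-coding genes. Among the genes that were listed at all, 46.2% of the receptors had a stringent peak, which is near the 40.6% of all 4209 listed genes.

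**Figure D1:**
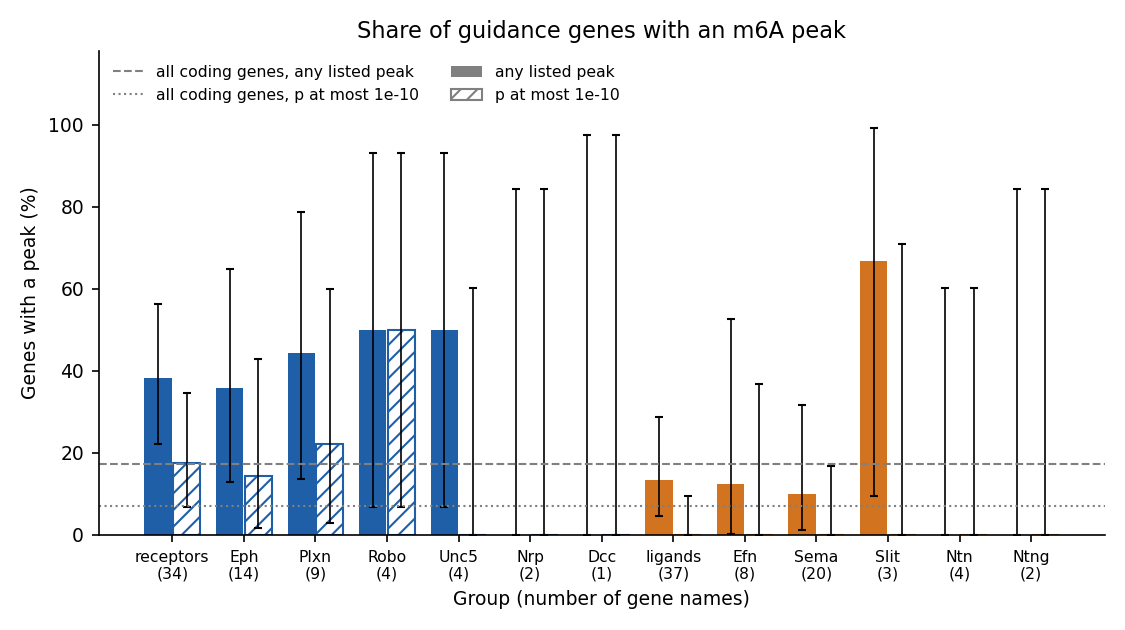
Share of gene names with any listed peak (filled bars) and with a stringent peak, p at most 1e-10 (hatched bars), for all receptors, all ligands and each family, in percent. Whiskers are exact 95% intervals, lines give the share of all protein-coding genes, and the numbers under the axis are gene names per group. Receptors reach 38.2% and 17.6%, ligands 13.5% and 0%.

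Fold enrichment followed the same order when each gene was given its highest peak. The median over the 13 listed receptors was 7.27 (order-statistic 95% interval 4.05 to 15.44), and over the 5 listed ligands it was 3.77 (range 2.90 to 5.99), a ratio of 1.93. The median over all listed genes was 6.62, with quartiles of 4.80 and 9.81. The ranges overlapped: 8 receptors lay above the highest ligand, the other 5 lay among the ligands, and 2 ligands lay below the lowest receptor. A highest fold of 10 or more was reached by 6 receptors (46.2%) and 0 ligands, against 24.2% of all listed genes. These were the same 6 genes that had a stringent peak.

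The number of peaks differs between genes, and more peaks give more chances of a high value. Of the listed genes, 3 of 13 receptors and 0 of 5 ligands had 3 or more peaks, and the share of receptors was near the 23.7% of all listed genes. Among genes with 1 peak, 7 receptors had a median of 6.72 and 4 ligands a median of 3.45, with 5.45 over all 2317 listed genes with 1 peak. Among genes with 2 peaks, 3 receptors had a median of 5.75 (range 3.77 to 7.27) and the only ligand stood at 5.63, with 7.18 over all 896 such genes, so there the values lay close together. Taken peak by peak, in contrast, the 28 receptor peaks had a median fold of 4.43 and the 6 ligand peaks 4.62, a ratio of 0.96, both below the 5.90 of all peaks. The Robo genes supplied 12 of the 28 receptor peaks, 8 of them under 5-fold, and without them the receptor median by peak was 5.96 and the ratio 1.29.

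**Figure D2:**
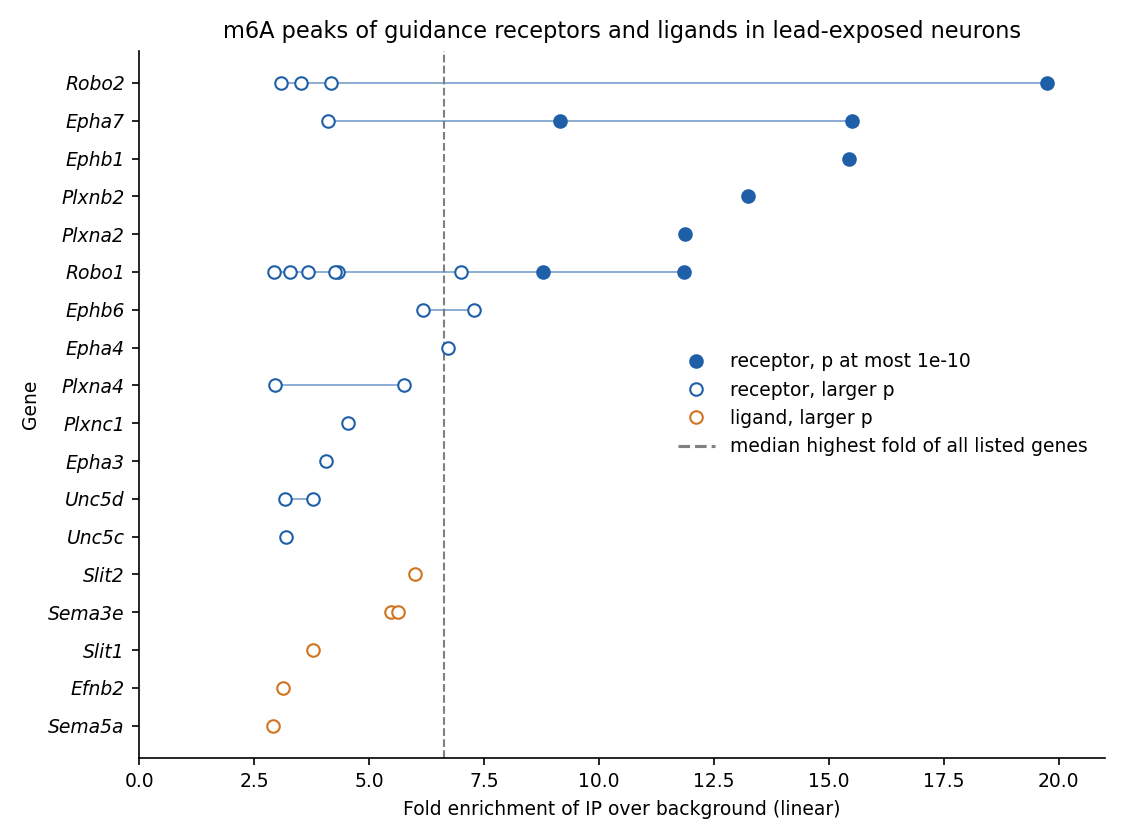
Fold enrichment (linear) of every listed peak of the 18 guidance genes, 1 row per gene, receptors in blue and ligands in orange. Filled points have a p of at most 1e-10 and the dashed line is the median highest fold of all listed genes, 6.62. All filled points are receptor peaks, and the 5 ligand genes lie at or under 5.99.

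Of the 4 ligand and receptor systems, Slit and Robo had the highest share of listed genes, but this rests on 7 genes. Slits are secreted glycoproteins that repel axons, and Robo receptors are the immunoglobulin-domain proteins that bind them. Of 7 genes, 4 were listed (57.1%, interval 18.4 to 90.1%), and they held 14 of the 34 guidance peaks (41.2%). The coding-gene share of 17.3% lay just under the lower end of that interval. The intervals of the other systems overlapped it, so the order of the systems is not settled. They were 10.7 to 50.2% for ephrin and Eph and 7.45 to 37.5% for semaphorin, plexin and neuropilin. For netrin, Dcc and Unc5 the interval was 2.28 to 51.8%. Robo2 had 4 peaks, with folds of 4.16, 19.75, 3.51 and 3.09 in order of position and scores of 27.63, 682.99, 8.77 and 4.77. A single region thus stood far above the rest of the gene. This peak covered bases 14759934 to 14760194 of chromosome 11. It was the highest of all guidance peaks, and 259 of the 4209 listed genes had a highest fold at least as large.

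Robo1, which lies near Robo2 on the same chromosome, had a different profile. Its 8 peaks had folds of 3.28, 4.32, 4.26, 3.66, 7, 8.78, 2.93 and 11.85 in order of position. Scores were 6.44, 19.26, 3.33, 28.08, 74.91, 134.85, 15.74 and 188.97. Enrichment was spread over several regions of middling fold, and the last peak, at bases 13799862 to 13800170 of chromosome 11, was the highest. Only 81 listed genes had 8 or more peaks. Within genes of 6 or more peaks, the highest fold of Robo1 was at the 43.5th percentile, so for a gene with that many peaks it was ordinary.

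The contrast between both genes can be given as the ratio of the highest to the second-highest fold, which was 4.75 in Robo2 and 1.35 in Robo1. Over 1880 genes with 2 or more peaks on 1 chromosome the median ratio was 1.35 (quartiles 1.14 and 1.74), which places Robo2 at the 98.5th percentile and Robo1 at the 50.3rd. The peaks of each gene stretched over a similar distance, 142.7 kb in Robo1 and 142.8 kb in Robo2, against a median of 15.9 kb over those genes. In Robo1, 6 of the 8 peaks lay within a stretch of 33.5 kb. From the last Robo1 peak to the first Robo2 peak there were 940.1 kb.

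The ligands of this system had weak peaks. Slit2 had 1 peak with a fold of 5.99 and a score of 9.2, a p of 0.120. Slit1 had 1 peak with a fold of 3.77 and a score of 3.88, a p of 0.409. Both Slits were below the median of all listed genes, and neither passed a p of 0.05. Slit3, Robo3, which in mouse acts in commissural axons, and Robo4, a receptor of vessel endothelium, had no listed peak.

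**Figure D3:**
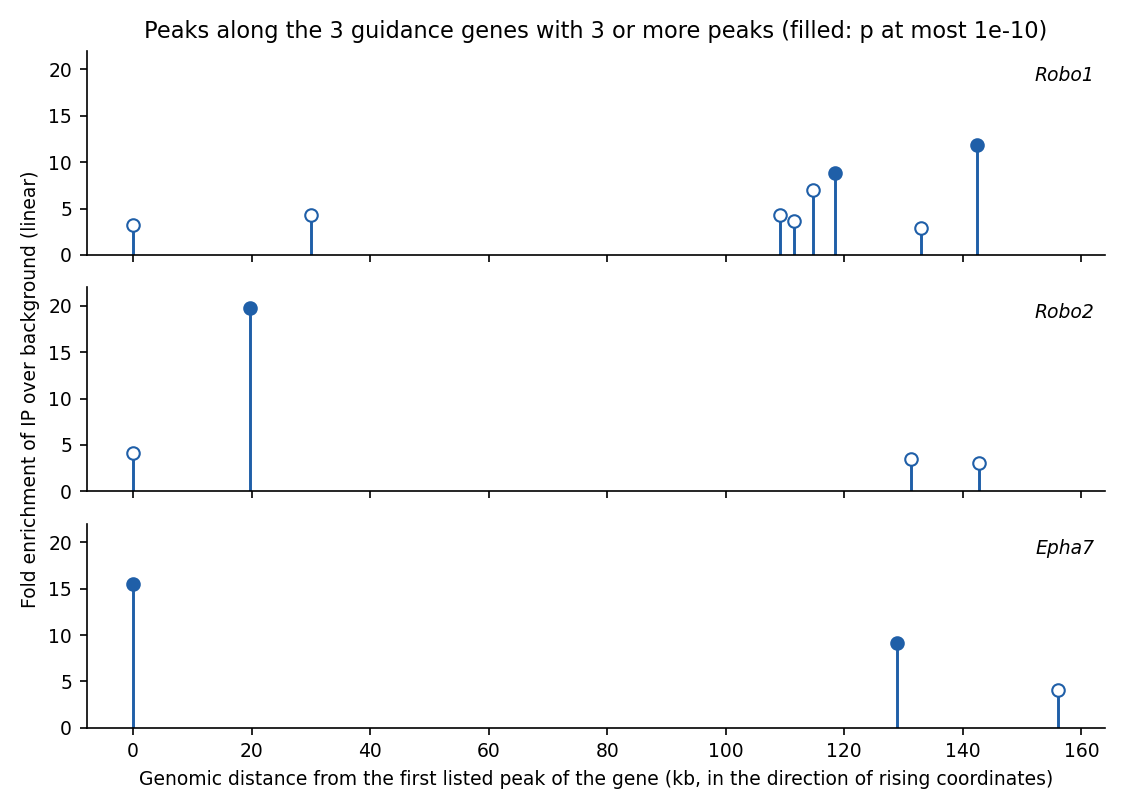
Fold enrichment (linear) of the peaks of Robo1, Robo2 and Epha7 against genomic distance in kb from the first listed peak of each gene. Filled points have a p of at most 1e-10. Robo2 has 1 peak of 19.75 among 3 low ones, Robo1 has 8 peaks of which 6 lie close together, and the 3 peaks of Epha7 run from 15.51 to 4.10.

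Eph receptors are receptor tyrosine kinases that read ephrins on neighbouring cells by contact. Of 14 Eph genes, 5 had a peak (35.7%, interval 12.8 to 64.9%), 3 of 9 A-type and 2 of 5 B-type receptors. The share of Eph genes was above the 17.3% of all protein-coding genes, but its interval included that value. Epha7, an A-type receptor, had 3 peaks with folds of 15.51, 9.16 and 4.10 in order of position and scores of 381.19, 123.35 and 6.02. The first covered bases 48230146 to 48230382 of chromosome 5, and the peaks together spanned 156.3 kb. Each further peak along the chromosome had a lower fold, and the first and second were stringent.

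Ephb1, a receptor for transmembrane B-type ephrins, had 1 peak with a fold of 15.44 and a score of 315.25, at bases 110218003 to 110218328 of chromosome 8. Among listed genes with 1 peak that fold was at the 95.3rd percentile, so Ephb1 was high for a gene with a single peak. Ephb6, whose kinase domain has no catalytic activity, had 2 peaks. The longer, of 524 bases, had the higher fold, 7.27, with a score of 47.75, and the shorter, of 72 bases, had a fold of 6.18 with the higher score, 80.23. The order of these peaks therefore depends on the measure.

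The other listed Eph receptors had weaker support. Epha4, which binds ephrins of both types and in mouse hippocampus acts on dendritic spines, had 1 peak of 59 bases with a fold of 6.72 and a score of 9.46. That fold is near the median of all listed genes, and the p of 0.113 did not pass 0.05. Epha3 had 1 peak with a fold of 4.05 and a score of 19.61. Epha1, Epha2, Epha5, Epha6, Epha8, Epha10, Ephb2, Ephb3 and Ephb4 had no listed peak.

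Of the 8 ephrin genes only Efnb2, a transmembrane ephrin, had a peak. It was 527 bases long with a fold of 3.12 and a score of 5.8, a p of 0.263, and Efnb2 was at the 3.30th percentile of listed genes. The share of listed ephrins was 12.5% (interval 0.316 to 52.7%), near the 17.3% of all protein-coding genes. Efna1, Efna2, Efna3, Efna4, Efna5, Efnb1 and Efnb3 had no listed peak.

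Plexins are the signalling receptors of semaphorins. Of 9 plexin genes, 4 had a peak (44.4%, interval 13.7 to 78.8%). That is above the 17.3% of all protein-coding genes but with an interval that includes it. Plxna2, which in mouse directs the layering of mossy fibres in the hippocampus, had 1 peak with a fold of 11.88. Its score of 820.32 was the highest of all guidance peaks, and at 571 bases it was also the longest, at bases 117922569 to 117923139 of chromosome 13. Plxnb2, a receptor of class 4 semaphorins, had 1 peak with a fold of 13.25 and a score of 131.97, at bases 129846992 to 129847344 of chromosome 7. Among listed genes with 1 peak these folds were at the 91.5th and 93rd percentiles.

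The other listed plexins were weak. Plxna4 stood in the table under its older name Plxna4a, with 2 peaks of 2.94 and 5.75-fold and scores of 4.72 and 11.62. Neither passed a p of 0.05. Plxnc1, the receptor of Sema7a, had 1 peak with a fold of 4.54 and a score of 21.58, a p of 0.00695. Plxna1, Plxna3, Plxnb1, Plxnb3 and Plxnd1 had no listed peak, nor did Nrp1 and Nrp2, the neuropilins that form holoreceptors with type A plexins for class 3 semaphorins.

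Semaphorins are the largest family here, and 2 of 20 genes had a peak (10%, interval 1.23 to 31.7%), which is below the 17.3% of all protein-coding genes but with an interval that includes it. Sema3e, a secreted semaphorin that binds Plxnd1 without a neuropilin, had 2 peaks separated by 1155 bases, with folds of 5.48 and 5.63. The first had a score of 30.84, a p of 8.24e-04, the best of any ligand peak, while the second, with the higher fold, had a score of 4.15. Sema5a, a membrane semaphorin with thrombospondin repeats, had 1 peak with a fold of 2.90 and a score of 3.52, the lowest fold among the 34 peaks. The remaining semaphorin genes, 6 of class 3 and 12 of the classes 4 to 7, had no listed peak, among them Sema3a, the classical growth-cone collapsing factor, and Sema7a.

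Netrins attract axons through Dcc and repel them through Unc5 receptors. Only Unc5c and Unc5d had peaks, 2 of 11 genes of this system (18.2%, interval 2.28 to 51.8%). That share was near the 17.3% of all protein-coding genes. The 11 include the 2 netrin-G genes, which were placed here by name. Unc5c had 1 peak with a fold of 3.19 and a score of 4.95. Unc5d had 2 peaks, 341.2 kb from the first base to the last, with folds of 3.77 and 3.16 and scores of 4.94 and 3.8. None of these 3 peaks passed a p of 0.05, and the highest folds of both genes lay at or under the 10.2nd percentile of listed genes. Dcc, Unc5a, Unc5b, the 4 netrins Ntn1, Ntn3, Ntn4 and Ntn5, and the membrane-anchored netrin-G genes Ntng1 and Ntng2 had no listed peak. No gene of this system had a stringent peak, while the Slit and Robo, ephrin and Eph, and semaphorin and plexin systems had 2 such genes each. Of all protein-coding genes 7.01% had one, so with 11 genes a count of 0 does not set the system apart. By median highest fold, 3.48 over its 2 listed genes, it was the lowest of the 4 systems.

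The 34 peaks as a set were weaker than the list as a whole. Their median fold was 4.43 (quartiles 3.55 and 7.20) against 5.90, and their median score 17.5 against 40.5. Of the 34, 18 passed a limit of 0.05 (52.9%, against 71.8% of all peaks) and 8 were stringent (23.5%, against 32.9%). A fold of 10 or more was reached by 6 peaks (17.6%, against 17.3%). Their median length was 144 bases, against 161. The upper quartile of score was 78.9 against 169 of all peaks. By score the set was thus below the whole list also at its high end, and only the share at 10-fold or more was near that of all peaks.

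**Figure D4:**
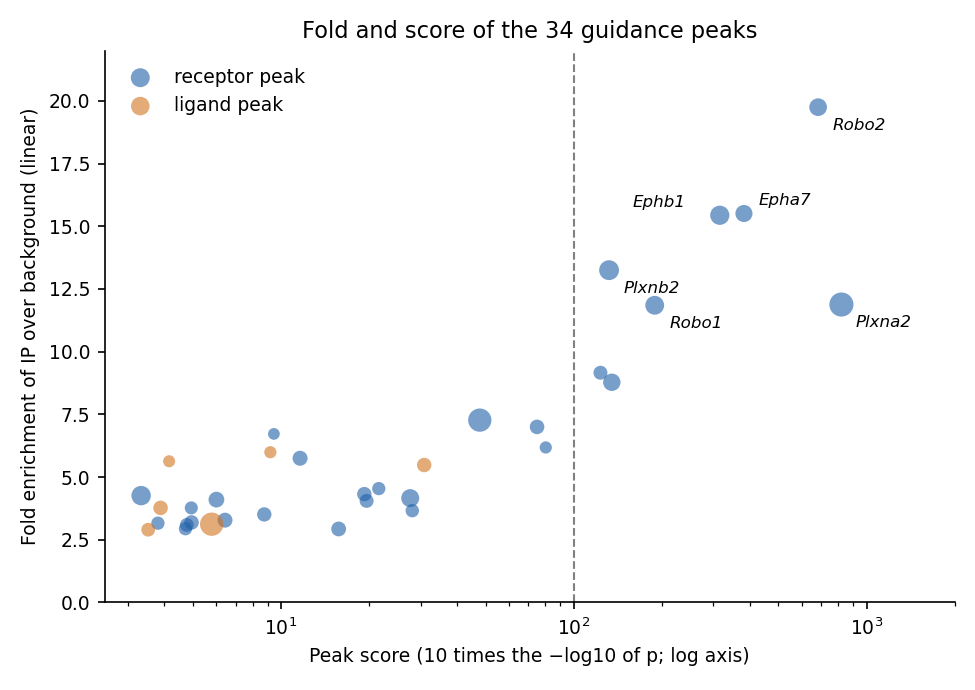
Fold enrichment (linear) against score (log axis) of the 34 guidance peaks, receptors in blue and ligands in orange, with point area growing with peak length. The dashed line is a score of 100, a p of 1e-10. The 8 peaks to its right are receptor peaks with folds from 8.78 to 19.75, and the ligand peak with the highest score is at 30.84.

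Peaks of 1 gene lay apart from each other. In 7 genes with 2 or more peaks there were 16 gaps between neighbouring peaks, from 1155 bases to 341 kb with a median of 13.3 kb. Peaks in the table are numbered along each chromosome, and in 15 of the 16 gaps no number was skipped. The exception was the long gap in Unc5d, where 3 numbers lay between those of its 2 peaks. In 5 of the 7 genes the peak with the highest fold also had the highest score, Ephb6 and Sema3e being the exceptions. Whether neighbouring peaks belong to separate exons was not analysed.

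The pathway column of the table carried the axon guidance term for 46 listed genes. It included 17 of the 18 guidance genes, all but Plxna4, and 29 others. Among the others were Gnai2, a G protein subunit, at 20.67, the collapsin response mediator Dpysl5 at 12.63 and Gnai3 at 11.06. The median highest fold was 5.99 over the 17 and 7.62 over the 29, both near the 6.62 of all listed genes. A stringent peak was found in 6 of the 17 (35.3%) and 12 of the 29 (41.4%), both near the 40.6% of all listed genes.

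The genes chosen here as acting inside the cell downstream of guidance receptors were listed more often than the 17.3% of all protein-coding genes. The lists were picked by hand with earlier results of these data known, and the level of each mRNA was not taken into account. The share of stringent genes among those listed is to be read against the 40.6% of all listed genes. Of 41 adaptors, kinases and other effectors that act near the receptors, 22 had a peak (53.7%, interval 37.4 to 69.3%) and 10 of these had a stringent one (45.5%). Itsn1, an endocytic scaffold and exchange factor, led them at 31.22, followed by the filopodial motor Myo10 at 21.83, the Ena/VASP protein Evl at 18.75 and the oxidoreductase Mical3 at 15.51. Their median highest fold was 7.28.

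Actin and kinase outputs were listed in 15 of 30 cases (50%, interval 31.3 to 68.7%), 8 of them with a stringent peak (53.3%), with a median of 8.44. The non-muscle myosins Myh10, Myh9 and Myh14 were highest at 35.81, 22.02 and 19.56. Partners of guidance receptors and the enzymes that process them were listed in 13 of 39 cases (33.3%, interval 19.1 to 50.2%), 3 of them with a stringent peak (23.1%), with a median of 4.49. The partners thus stood above the 17.3% of coding genes in listing, with an interval that began near it, and below the 40.6% in stringent peaks. Lingo1, a part of the Nogo receptor complex, was at 14.08, the proteoglycan Sdc2 at 11.46, Fzd3, which in mouse guides long axon tracts, at 7.31 and the adhesion molecule Chl1 at 6.95. The surface partners, like the ligands, had a median below that of all listed genes, whereas the medians of receptors, adaptors and actin outputs lay above it.

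**Figure D5:**
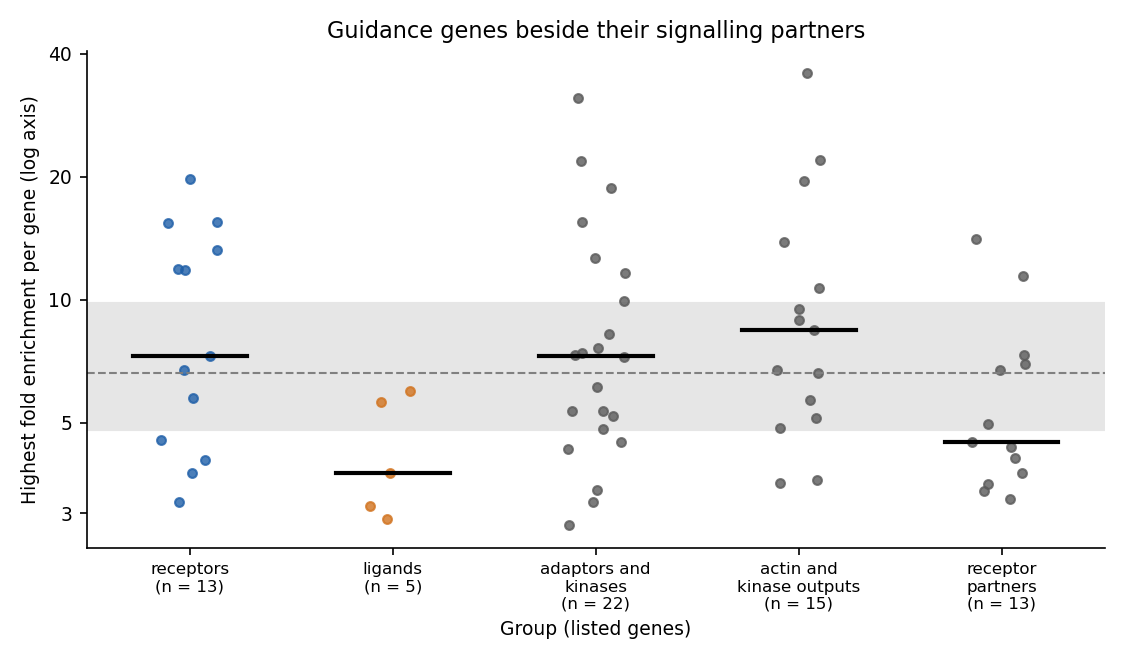
Highest fold enrichment per listed gene (log axis) for receptors, ligands and 3 groups of genes that act with them, 1 point per gene, with a bar at each median. The dashed line and grey band are the median, 6.62, and the quartiles, 4.80 and 9.81, of all listed genes. Ligands (3.77) and receptor partners (4.49) have the lowest medians and actin and kinase outputs (8.44) the highest.

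Marker genes of cell types were looked up in the same way. A peak is not a measure of expression, so these counts cannot check the labelled cell type. Neuron markers were listed in 9 of 15 cases, all 9 with a stringent peak. That compares with 17.3% of protein-coding genes listed and 40.6% of listed genes with a stringent peak. The highest folds of the 9 ran from 6.22 to 70.97, the top one being that of Gap43, a growth-cone protein. Astrocyte markers were listed in 3 of 10 cases, those of the oligodendrocyte lineage in 1 of 10, of microglia in 2 of 10 and of vessels and fibroblasts in 1 of 10. These 4 shares ran from 10 to 30%, and their exact 95% intervals all held the 17.3% of coding genes. Of these 4 lists, 1, 0, 0 and 1 genes had a stringent peak. What other cells added to the peaks of guidance genes was not tested, and neither was what the level of each mRNA in the input did to its chance of being listed.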

How the data were processed

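A single table of m6A peaks was analysed, from 1 IP and 1 input library of lead-exposed rat hippocampal neurons, grouped by sample title. The tools in the submitters' processing notes are HISAT2 2.0.4, STAR and cutadapt 1.9.3, with no role given. Peak names are those of MACS, per the file headers; no source used here gives its version, its thresholds, the genome build or the annotation. Fold enrichment was deposited as a linear ratio. Per the file headers, the p-value is given as −log10 times 10, and another deposited score column holds the same number in each of 8512 rows. The deposited percent false discovery rate was 100 for each peak and was not used. Peak length was deposited in bases and equalled end minus start in every row, so 1 was added to each start. The highest peak number was 14090, more than the rows of the table.

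Gene names were brought up to date with RefSeq's table of GRCr8, first on symbol (7761 peaks), then on gene ID (459), then on transcript (23). The 2 peaks named Plxna4a were matched by synonym, and 267 peaks kept the deposited name. The rule fits 72 names of that assembly. Unc5cl, which is no netrin receptor, was left out, which leaves 71 guidance genes. Every listed member is named, and up to 4 genes of each other list with the highest fold, of which some are not reported here. Members, lists and alternatives were chosen with earlier results of these data known. Shares have exact (Clopper-Pearson) 95% intervals and medians order-statistic intervals, or the range under 6 genes. No test was made, and the computation was tested on simulated data. The software was Python 3.11.15 with SciPy 1.17.1, numpy 2.4.6, pandas 2.3.3 and, for plots, matplotlib 3.10.9. Peak and protein sequences are not shown, since no genome matching the peak coordinates was used.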

Additional observations from a re-analysis of the deposited data

How the results depend on the processing

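No paired analysis was possible because each group had 1 library. Of 80 values recomputed under the alternatives, 65 stayed within 1.5 times of a count or ratio or inside the interval of a median. The 65 include all results of merging and of removing netrin-G genes or genes now on another chromosome. Those settings could not move a value. For the ligand median the interval is the full range of 5 genes, 2.90 to 5.99, which almost any subset would stay inside. The count is therefore no measure of how stable the results are. The number of guidance peaks went from 34 to 18, 10 and 8 with p limits of 0.05, 1e-5 and 1e-10, and to 16 at 5-fold or more. Guidance genes went from 18 to 10, 7, 6 and 11 under the same settings. Receptor genes went from 13 to 7 at 1e-5 and 6 at 1e-10, and ligand genes from 5 to 1, 0 and 0 at the 3 limits and to 2 at 5-fold or more. With no ligand left at 1e-5 and 1e-10, no ligand median or ratio could be had there. The ratio of receptor to ligand medians, 1.93, turned to 0.96 with 1 value per peak. It ranged from 1.29 to 2.78 under the other alternatives, of which the lowest, 1 value per peak without the Robo genes, was chosen after seeing the data. So were the removal of Plxna4, of the Eph receptors, of the Robo receptors or of the plexins, and the restriction to genes with 1 peak. Within that range, the ratio of 2.17 at the 0.05 limit rested on 1 ligand gene. The ratio of 2.04 at 5-fold or more rested on 2. Merging within 100 or 1000 bases and the removal of netrin-G genes or of genes now on another chromosome changed nothing, since no guidance peak was affected. Depth is unknown, so weak and missing peaks cannot be told apart from low coverage.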
